A study of Mus musculus with 24 samples.

Results

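Tirzepatide, labelled TZP, activates the receptors of both incretin hormones, GIP and GLP-1, and lowers food intake. For every gene of mouse brown adipose tissue, its effect was set against the sum of 2 simpler interventions: LAGIPRA, a long-acting drug that activates the GIP receptor, and vehicle given to pair-fed mice. The measure was the contrast TZP minus LAGIPRA minus PairFedVehicle plus Vehicle, taken between group means on the log2 scale, and it is called the departure here. It is 0 where the TZP effect equals the LAGIPRA effect plus the pair-feeding effect. It is positive where the TZP level lies above that sum and negative where it lies below. All 24 of the 24 libraries entered it, and 17263 of the 23017 genes in the deposited table were tested, those above the lowest 25% by mean level.

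The mice were C57BL/6J, and the series title describes them as obese and insulin resistant. Polyadenylated RNA of brown adipose tissue was sequenced, with 6 libraries in each group: mice given vehicle (Vehicle), mice given vehicle and pair-fed (PairFedVehicle), mice given LAGIPRA and mice given TZP. The dose, the duration, the age, the diet and the group whose intake set the ration are not stated in the labels. Nothing in the labels says that the 6 libraries of a group came from separate animals, so the p-values measure the spread between these libraries, which may be technical. TZP also acts on the GLP-1 receptor, and no group received a GLP-1 receptor agonist alone or LAGIPRA with pair feeding. The contrast is therefore a comparison of 1 drug with a sum of 2 other treatments and not a test of an interaction within crossed factors.

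Brown adipose tissue burns lipid and glucose to make heat, using uncoupling protein in the inner mitochondrial membrane. It also makes fatty acids from glucose at a high rate, through citrate export, acetyl-CoA carboxylase and fatty acid synthase, and it makes sterols through the mevalonate pathway. Both synthetic pathways are controlled by SREBP transcription factors and follow feeding and insulin. Less food lowers insulin and normally lowers these pathways, whereas incretin drugs lower food intake and also act on insulin secretion and on tissues that carry their receptors.

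The deposited values are log2 levels whose median differs little between libraries (4.61 to 4.62), so absolute read depth cannot be read from them. The value that a lone read is worth, taken as the commonest low value of each library, gave group means of 1.04 in Vehicle, 1.35 in LAGIPRA, 1.15 in PairFedVehicle and 1.32 in TZP. The library with the lowest such value, Vehicle 1 at 0.89, had 867 genes near 0. The one with the highest, LAGIPRA 4 at 1.68, had 1272. A difference in relative depth between the groups was not tested. The slope of a library's deviation on transcript length averaged 0.04 in Vehicle, 0.01 in LAGIPRA, 0.01 in PairFedVehicle and −0.07 in TZP, where libraries 3 to 6 reached down to −0.16. Long transcripts therefore read lower in those 4 TZP libraries. Genes of brown adipocytes were abundant in all groups: Ucp1 stood at 14.90 ± 0.15 (SD, n = 6) in Vehicle, 15.31 ± 0.23 in LAGIPRA, 15.34 ± 0.14 in PairFedVehicle and 15.40 ± 0.30 in TZP. At the top of the scale exact values recurred between libraries, such as 15.09 for Ucp1 in LAGIPRA, PairFedVehicle and TZP. Differences of Ucp1, and of Cox8a and Cox8b below, are therefore steps between a few shared values. Skeletal muscle transcripts varied widely within groups, with a mean marker level between 1.11 and 9.72 in Vehicle, 5.97 and 9.16 in LAGIPRA, 0.97 and 10.01 in PairFedVehicle and 1.27 and 9.44 in TZP. All 8 epithelial and mesothelial markers fell below the expression filter. In bulk tissue, fewer cells of a type and less RNA per cell cannot be told apart.

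The departure was called in 465 genes, 2.69% of those tested (limma, Benjamini-Hochberg adjusted p under 0.05 over all 17263 genes). The TZP level lay above the sum in 200 genes (1.16%) and below it in 265 (1.54%). The unadjusted p was under 0.05 in 3209 genes. Over all tested genes the median departure was −0.02, and its median standard error was 0.21. The departure was positive in 8089 of the 17263, the share against which the signs within families are to be read. The separate effects against Vehicle were called more often. Pair feeding raised 4.96% of the tested genes and lowered 3.66%, LAGIPRA raised 8.7% and lowered 5.03%, and TZP raised 11.7% and lowered 10.3%. These effects use the same Vehicle libraries, and the departure contains all 4 groups, so what follows describes how each departure was composed and is not separate evidence for it.

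In most called genes the pair-feeding effect was the largest. Among the 465 genes, pair feeding had the largest of the 3 effects in 347 (74.6%, against 27.3% of all tested genes), and its effect was called in 357 (76.8%, against 8.61%). In 259 of the 465 (55.7%, against 5.13%) the pair-feeding effect was called and the TZP effect was not. The TZP mean lay nearest to the Vehicle mean in 204 of the 465 (43.9%, against 23.7% of all tested genes). It lay nearest to LAGIPRA in 226 (48.6%, against 45.3%) and nearest to PairFedVehicle in 35 (7.53%, against 30.9%). The share nearest to LAGIPRA was thus close to that of all tested genes. Pair feeding was the only effect called in 199 genes (42.8%, against 4.53% of all tested genes), 99 above the sum and 100 below. LAGIPRA and pair feeding were both called in the same direction in 117 (25.2%, against 2.33%), 46 above and 71 below. TZP was the only effect called in 42 (9.03%, against 12.3%), 2 above and 40 below. None of the 3 effects was called in 29 (6.24%, against 67.8%), and other combinations made up the remaining 78 (16.8%, against 13%).

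Of 48 gene lists, 47 had a tested member. The lists with the highest shares of called members were adipokines and white adipocyte genes, cholesterol synthesis, fatty acid synthesis, endothelial markers and glycolysis, as the bar plot of families shows.

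**Figure D1:**
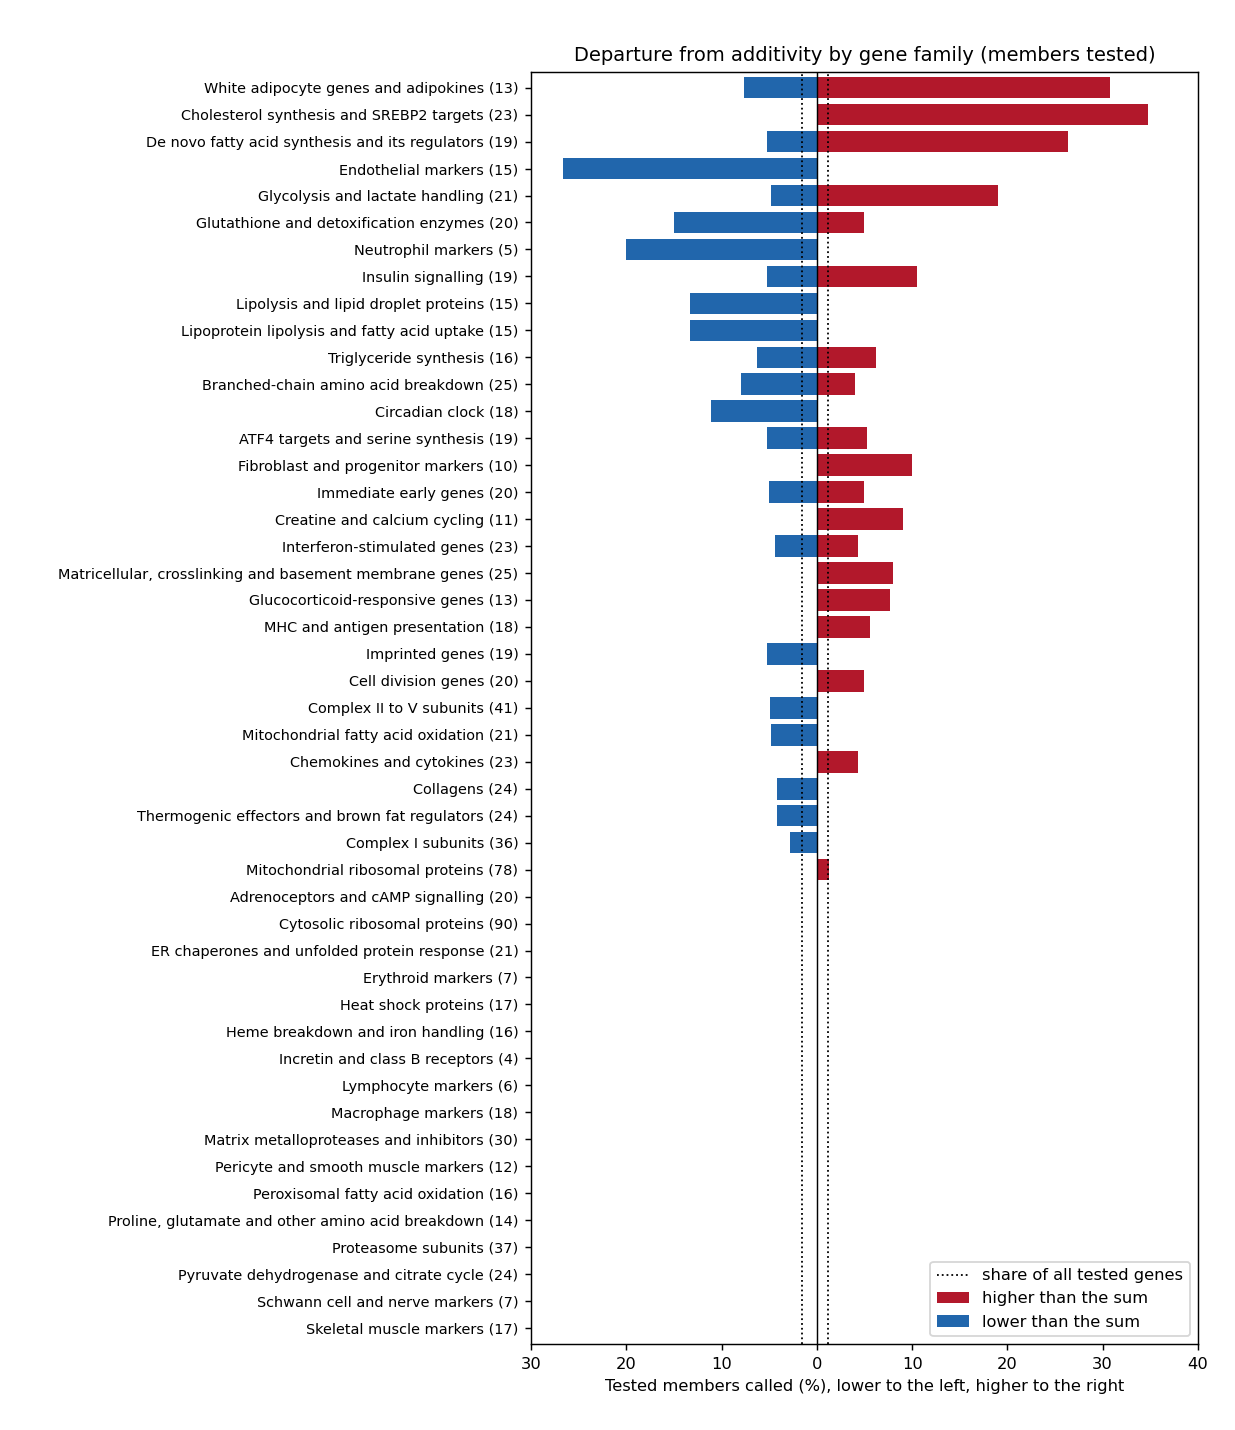
Share of tested members called in each gene family, in percent, with members above the sum to the right and below it to the left. Dotted lines give the share of all tested genes (1.16% above, 1.54% below). Cholesterol synthesis extends only to the right and endothelial markers only to the left.

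Cholesterol synthesis departed upward. Of 23 tested genes of the mevalonate and sterol pathway and its SREBP2 targets, 8 lay above the sum and 0 below, with a further 8 at an unadjusted p under 0.05 (16 in all) and a median departure of 0.48. Pair feeding lowered 15 of the 23 and raised 0, with a median effect of −0.64. LAGIPRA lowered 1 and TZP lowered 1, and neither raised any, with median effects of 0.00 and −0.00. The called members ran from the mevalonate steps to the last reduction of the sterol ring. In each of the 8, pair feeding was the only effect called against Vehicle.

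Promoters of 4 of these called genes are shown because the members moved together. Each line gives the 150 bases before the RefSeq transcription start (mouse GRCm38.p6), 5′ to 3′ on the strand of the gene, with CCAAT, or its reverse complement ATTGG, in capitals. Idi1 lies on the plus strand at chr13:8885456-8885605, Nsdhl on the plus strand at chrX:72918371-72918520, Lss on the plus strand at chr10:76531455-76531604 and Cyp51 on the minus strand at chr5:4104698-4104847.
Idi1: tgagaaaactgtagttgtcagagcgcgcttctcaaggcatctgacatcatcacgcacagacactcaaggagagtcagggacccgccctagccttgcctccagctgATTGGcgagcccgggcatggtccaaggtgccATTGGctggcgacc
Nsdhl: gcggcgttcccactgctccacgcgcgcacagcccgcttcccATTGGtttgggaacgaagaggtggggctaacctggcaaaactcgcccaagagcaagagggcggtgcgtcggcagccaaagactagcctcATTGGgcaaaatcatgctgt
Lss: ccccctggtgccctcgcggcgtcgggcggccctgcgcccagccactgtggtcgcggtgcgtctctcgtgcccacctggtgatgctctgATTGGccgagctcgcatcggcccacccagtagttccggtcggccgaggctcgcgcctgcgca
Cyp51: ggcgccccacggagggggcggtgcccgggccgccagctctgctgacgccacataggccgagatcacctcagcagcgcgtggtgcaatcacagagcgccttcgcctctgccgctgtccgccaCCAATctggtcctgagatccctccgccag

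CCAAT is the core of the site bound by NF-Y, a factor known to work beside SREBP at sterol genes. Searched on both strands of the 250 bases before the start, it was found in 16 of the 16 cholesterol genes matched to the RefSeq table, among them the 6 called genes that matched. It was found in 39.7% of the 11417 tested genes that matched. The letters TCACNCCAC, close to a sterol regulatory element, were found in 1 of the 16, Hmgcs1, and in 1.25% of the matched genes. Overlapping matches of the motifs were allowed. These counts describe letters in a window, and the motif and the list were chosen with the expression results known.

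Fdps (Entrez gene 110196), which makes farnesyl diphosphate, had the smallest p of the list. Its lowest, median and highest values were 6.19, 6.31 and 6.41 in Vehicle, 6.25, 6.35 and 6.54 in LAGIPRA, 4.98, 5.22 and 5.42 in PairFedVehicle and 6.23, 6.35 and 6.80 in TZP. All 6 pair-fed libraries lay below every other library, and the other 3 groups overlapped. The pair-feeding effect was −1.09, the LAGIPRA effect 0.06 and the TZP effect 0.12, which gave a departure of 1.16 ± 0.13 (SE, limma adjusted p = 3.49e-05). Idi1, the isomerase 1 step earlier in the pathway, ran from 4.42 to 5.03 under pair feeding and from 5.42 to 5.96 across the other groups, with a departure of 0.95 ± 0.14. Nsdhl, which removes methyl groups from the sterol ring, ran from 6.22 to 6.79 under pair feeding and from 7.31 to 8.04 in TZP, with a departure of 0.89 ± 0.15. The pair-fed libraries stood apart from all others in 6 of the 8 called members: Fdps, Idi1, Nsdhl, Dhcr7, Lss and Pmvk. Over all tested genes they lay below every other library in 0.655%, and in 30.5% of the 200 genes above the sum. A departure made by a fall under pair feeding favours such a gap, so the count describes these genes only.

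Dhcr7, which makes cholesterol from its last precursor, departed by 0.74 and Lss, which closes the sterol ring, by 0.65. Sqle, the epoxidase of squalene, departed by 1.13, Cyp51, which demethylates lanosterol, by 0.77 and Pmvk, a kinase of the mevalonate branch, by 0.59. Cyp51 and Pmvk passed the threshold narrowly, with adjusted p-values of 0.0411 and 0.0449. Not every member followed. Srebf2, the gene of SREBP2, departed by 0.34 (adjusted p = 0.2). Hmgcs1, the synthase at the start of the pathway, departed by −0.32 with a 95% interval of −0.71 to 0.07, and its pair-feeding effect was 0.16. It turned to 0.077 with TZP libraries 1 and 2 alone.

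**Figure D2:**
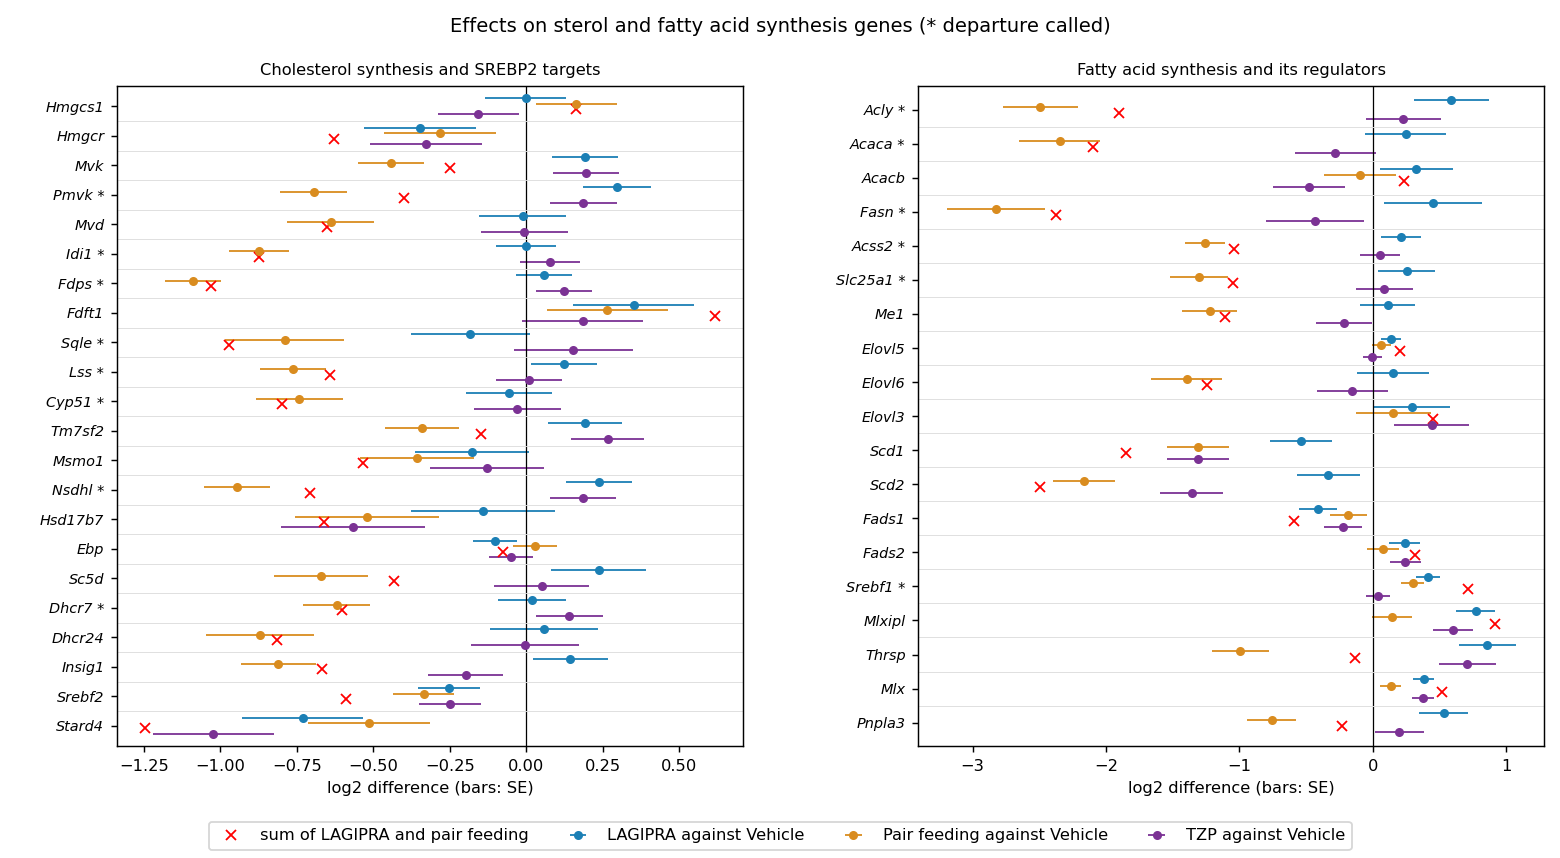
Effects of LAGIPRA, pair feeding and TZP against Vehicle (log2 difference, bars give the SE, n = 6 per group) for tested genes of 2 families, with the sum of LAGIPRA and pair feeding as a red cross. For Fdps the cross lies near −1.03 and the TZP point at 0.12.

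Fatty acid synthesis also departed upward. Of 19 tested genes, 5 lay above the sum and 1 below, with a median departure of 0.54. Pair feeding lowered 11 and raised 1 (median effect −0.99), LAGIPRA raised 4 and lowered 0 (0.26), and TZP raised 3 and lowered 2 (0.04). Acly (Entrez gene 104112), which splits exported citrate into acetyl-CoA, had lowest, median and highest values of 9.27, 9.64 and 9.93 in Vehicle, 9.72, 10.07 and 11.001 in LAGIPRA, 6.97, 7.15 and 7.28 in PairFedVehicle and 8.65, 9.83 and 11.19 in TZP. The pair-fed libraries were far below all others, and the TZP libraries spread across the whole range of the Vehicle and LAGIPRA libraries. The departure of Acly was 2.13 ± 0.40 (SE, adjusted p = 0.00577), from a pair-feeding effect of −2.49, a 5.63-fold fall, a LAGIPRA effect of 0.59 and a TZP effect of 0.23.

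The neighbouring enzymes were also lowest under pair feeding. Acaca, acetyl-CoA carboxylase, ran from 4.44 to 5.09 under pair feeding and from 5.73 to 8.15 in TZP, with a departure of 1.82 ± 0.43. Fasn, fatty acid synthase, ran from 9.41 to 10.45 under pair feeding and from 10.79 to 13.39 in TZP. Its departure of 1.94 ± 0.52 passed narrowly (adjusted p = 0.0472), and was 2.90 with TZP libraries 1 and 2 alone and 1.46 with libraries 3 to 6 alone. Acss2, which makes acetyl-CoA from acetate, departed by 1.10, and Slc25a1, the citrate carrier, by 1.14 (adjusted p = 0.0455). For these 4 genes, as for Acly, pair feeding was the only called effect and all 6 pair-fed libraries lay below the other 18, as in 30.5% of all genes above the sum. On the linear scale, where effects add as levels and not as ratios, 0 of these genes were called above the sum, and Acly had an adjusted p of 0.484. Leaving out 1 library moved the family's count to between 3 and 8.

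Pair feeding and TZP both lowered the desaturase genes. Scd1 had an effect of −1.31 under pair feeding and −1.31 under TZP, both called, and a departure of 0.54 that was not (adjusted p = 0.383, 95% interval −0.14 to 1.22). Over the alternative fits on the log2 scale that departure ran from 0.13 to 1.37, and it was called only with TZP libraries 1 and 2 alone. Scd2 had effects of −2.17 and −1.36, both called, and a departure of 1.14 (adjusted p = 0.0634). Its TZP libraries spread from 7.22 to 9.18 (median 7.48), the highest within the Vehicle range of 8.93 to 9.41. The Scd2 departure ran from 0.69 to 2.05 over the alternative fits on the log2 scale. It was called with TZP libraries 1 and 2 alone and with libraries 3 to 6 alone. Thrsp, a lipogenic nuclear protein, was raised by LAGIPRA (0.86) and by TZP (0.71) and lowered by pair feeding (−0.99), and its departure of 0.84 was not called (adjusted p = 0.134). Srebf1, the gene of the lipogenic SREBP factor, went below the sum. It was raised by LAGIPRA (0.42) and by pair feeding (0.30) and stood at 0.04 under TZP, a departure of −0.67 ± 0.12 (adjusted p = 0.00536). Its TZP libraries, 7.84 to 8.08, lay within the Vehicle range of 7.65 to 8.09 and below the lowest LAGIPRA library at 8.10.

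Glycolytic genes departed upward by smaller amounts. Of 21 tested, 4 lay above the sum and 1 below, with a median departure of 0.32. Pair feeding lowered 10 and raised 1 (median effect −0.35), LAGIPRA raised 4 and lowered 2 (0.21) and TZP raised 3 and lowered 0 (0.16). Pkm, the pyruvate kinase of most tissues, had lowest, median and highest values of 10.19, 10.36 and 10.48 in Vehicle, 10.23, 10.43 and 10.57 in LAGIPRA, 9.47, 9.70 and 9.995 in PairFedVehicle and 10.19, 10.49 and 10.66 in TZP. Only the pair-fed libraries stood apart. The departure was 0.71 ± 0.12 (adjusted p = 0.00317). Eno1, enolase, departed by 0.81 and Ldha, lactate dehydrogenase, by 0.52 (adjusted p = 0.0441), in both cases with the 6 pair-fed libraries below all others.

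Slc2a1 and Pfkfb3 reached the threshold in other ways. Slc2a1, the basal glucose transporter, was lowered by LAGIPRA (−0.51) and by pair feeding (−0.44) and stood at −0.19 under TZP, a departure of 0.77. Pfkfb3, whose enzyme makes the activator of phosphofructokinase, was raised by pair feeding (0.79) and stood at −0.20 under TZP, a departure of −1.26 ± 0.27. Its departure was −0.60 with TZP libraries 1 and 2 alone and −1.58 with libraries 3 to 6 alone. Without Vehicle replicate 6, LAGIPRA replicate 3, TZP replicate 5 or PairFedVehicle replicate 2, and on the linear scale, the number of glycolytic genes above the sum was 1 or 2 of 21.

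Adipokines and white adipocyte genes split in direction. Of 13 tested, 4 lay above the sum and 1 below, with a median departure of 0.20. Npr3 (Entrez gene 18162), the clearance receptor of natriuretic peptides, had the second smallest p of all genes. Its lowest, median and highest values were 7.11, 7.50 and 7.86 in Vehicle, 6.98, 7.17 and 7.38 in LAGIPRA, 5.09, 5.61 and 5.92 in PairFedVehicle and 7.004, 7.14 and 7.75 in TZP. Every pair-fed library was below every other, and the departure was 1.96 ± 0.21 (adjusted p = 1.93e-05). Rbp4, the retinol carrier, had a pair-feeding effect of −1.15 and a TZP effect of −0.03, with a departure of 1.51 ± 0.24. Lep, leptin, was lowered by pair feeding (−1.59) and by TZP (−0.69), with a departure of 1.14 (adjusted p = 0.0409). Psat1, a serine synthesis enzyme on this list, was lowered by all 3 treatments (LAGIPRA −0.72, pair feeding −0.57, TZP −0.44) and departed by 0.85. Cfd, adipsin, went the other way: pair feeding raised it by 1.65, TZP stood at 0.58, and its departure was −1.41 (adjusted p = 0.0479).

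**Figure D3:**
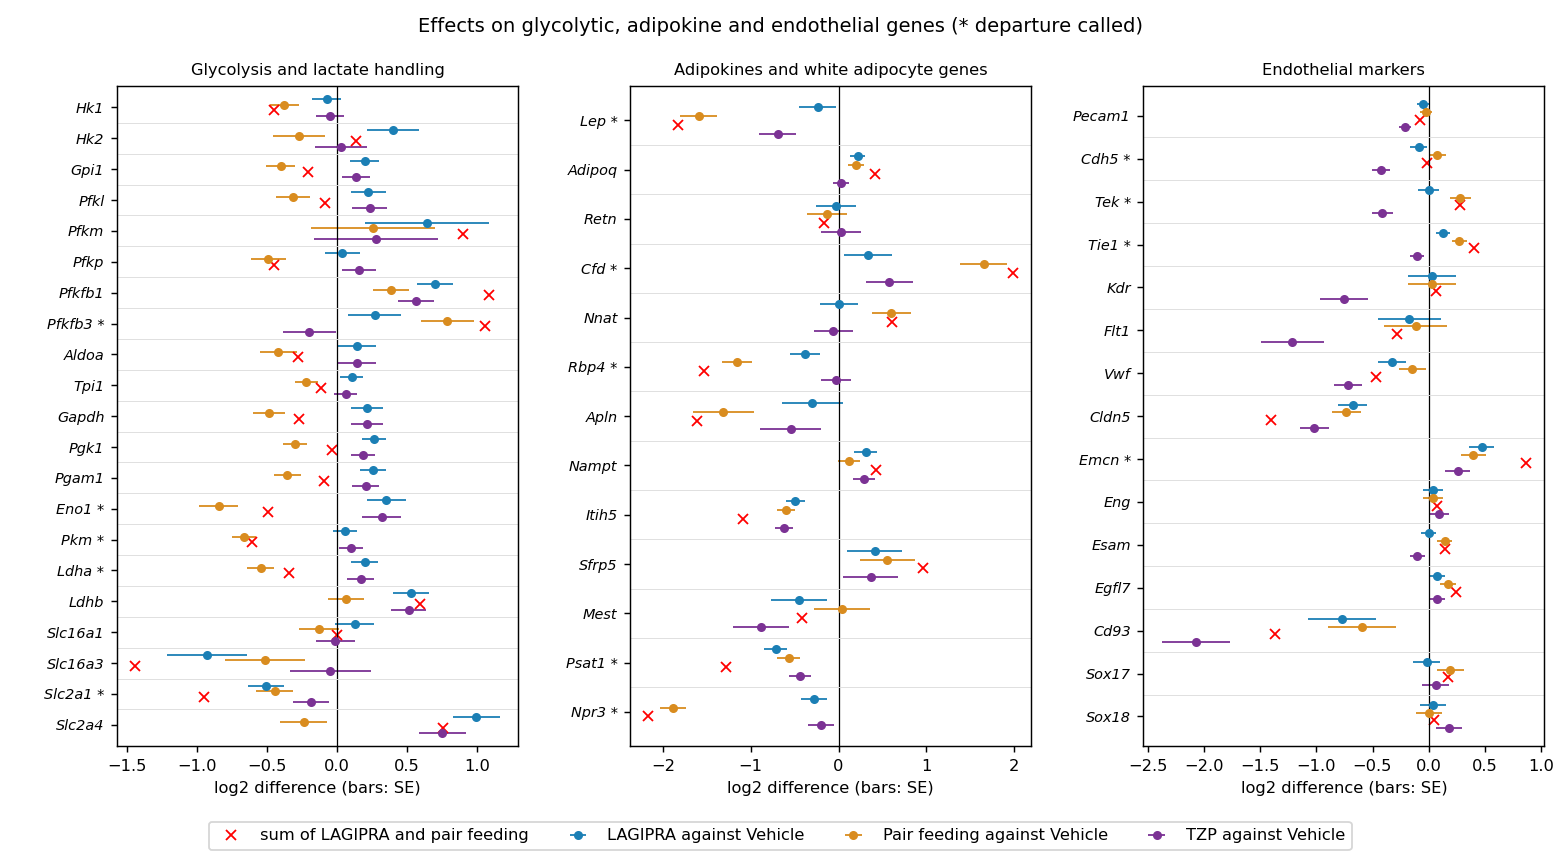
Effects of LAGIPRA, pair feeding and TZP against Vehicle (log2 difference, bars give the SE, n = 6 per group) for tested glycolytic, adipokine and endothelial genes, with the sum of LAGIPRA and pair feeding as a red cross. For Npr3 the cross lies near −2.16 and the TZP point at −0.20, and for Tek the TZP point at −0.41 lies left of the other effects.

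Insulin signalling genes had 2 of 19 tested above the sum and 1 below, and a median departure of −0.18, with 12 departures negative. TZP lowered 11 and raised 0 (median effect −0.42), pair feeding lowered 4 and raised 0, and LAGIPRA lowered 3 and raised 2. Grb14, an adaptor that restrains the insulin receptor, was raised by LAGIPRA (0.42), lowered by pair feeding (−0.87) and stood at 0.22 under TZP, a departure of 0.67 ± 0.15. Its pair-fed libraries lay below all others. Socs3, a feedback inhibitor of cytokine and insulin signals, was lowered by LAGIPRA (−1.22) and by pair feeding (−1.49) and stood at −0.79 under TZP, a departure of 1.92 (adjusted p = 0.0477). Irs1, the docking protein of the insulin receptor, was the 1 below. Its TZP libraries, 5.57 to 6.53, overlapped the lowest of the Vehicle libraries (6.34 to 7.49), and only the TZP effect was called (−0.79), with a departure of −1.19 ± 0.30 (adjusted p = 0.0355).

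Genes that pair feeding raised and that lay below the sum included detoxification and fatty acid handling genes. Gstt2 (Entrez gene 14872), a glutathione transferase, had the smallest p of all 17263 genes. Its lowest, median and highest values were 5.70, 5.88 and 6.03 in Vehicle, 5.83, 5.95 and 6.14 in LAGIPRA, 7.03, 7.35 and 7.52 in PairFedVehicle and 5.82, 6.03 and 6.37 in TZP. The pair-fed libraries lay above all others, and the departure was −1.37 ± 0.13 (adjusted p = 8.18e-06), from a pair-feeding effect of 1.44, a 2.72-fold rise. Of 20 tested glutathione and detoxification genes, 3 lay below the sum and 1 above, with a median departure of −0.13. The other 2 below were Gstt1, with −0.63 (adjusted p = 0.0438), and Mgst1, a microsomal transferase, with −0.46 (adjusted p = 0.0454). Srxn1, which repairs oxidized peroxiredoxins, was the 1 above. LAGIPRA (−0.51) and pair feeding (−0.53) both lowered it, TZP stood at −0.22, and it departed by 0.82 ± 0.18 (adjusted p = 0.0164).

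Fatty acid uptake and lipoprotein lipolysis had 2 of 15 tested below the sum and 0 above. Both are acyl-CoA synthetases that trap incoming fatty acids. Slc27a1 had a pair-feeding effect of 0.73 and a TZP effect of 0.08, with a departure of −0.69 ± 0.15 (adjusted p = 0.0189). Slc27a2 was raised by pair feeding (1.18) and by TZP (0.54), with a departure of −0.92 (adjusted p = 0.035). Triglyceride synthesis had 1 of 16 on each side: Aqp7, the glycerol channel, departed by −0.42 and Lpin3, a phosphatidate phosphatase, by 0.74. Vldlr, the VLDL receptor, listed here among ATF4 targets, departed by −0.65, with Psat1 as the other called member of those 19 genes.

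Lipolysis genes had 2 of 15 tested below the sum and 0 above, and in both LAGIPRA and pair feeding acted in 1 direction without adding up under TZP. G0s2 (Entrez gene 14373) encodes the inhibitor of adipose triglyceride lipase. Its lowest, median and highest values were 11.94, 12.22 and 12.86 in Vehicle, 12.77, 13.03 and 13.26 in LAGIPRA, 12.99, 13.32 and 13.63 in PairFedVehicle and 12.16, 12.43 and 13.12 in TZP. TZP libraries 1 and 2 (12.892 and 13.125) lay above every Vehicle library and within the LAGIPRA range. TZP libraries 3 to 6 (12.164 to 12.505) lay within the Vehicle range, and the pair-fed libraries lay above every Vehicle library. Over the alternative fits on the log2 scale the departure ran from −1.78 to −1.08. LAGIPRA raised G0s2 by 0.76 and pair feeding by 1.05, TZP stood at 0.27, and the departure was −1.54 ± 0.23 (adjusted p = 0.00101). Pnpla2, the lipase itself, followed at lower amplitude: 0.44 under LAGIPRA, 0.56 under pair feeding, 0.30 under TZP and a departure of −0.70 ± 0.17 (adjusted p = 0.0279).

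Other genes had this composition in either direction. Axin2, a feedback inhibitor of Wnt signalling, was raised by LAGIPRA (0.63) and pair feeding (0.99), stood at 0.35 under TZP and departed by −1.27 ± 0.21. Ptx3, a secreted pentraxin of innate immunity, was lowered by all 3 treatments: −1.39 under LAGIPRA, −2.78 under pair feeding and −1.64 under TZP. Its lowest, median and highest values were 6.85, 7.75 and 8.52 in Vehicle, 5.47, 6.43 and 6.98 in LAGIPRA, 4.08, 5.06 and 5.45 in PairFedVehicle and 5.27, 6.23 and 6.54 in TZP. The TZP median lay near that of LAGIPRA, the lowest TZP library fell within the pair-fed range, and the departure was 2.54 ± 0.44 (adjusted p = 0.00324). Ch25h, a cholesterol hydroxylase of macrophages and other cells, was lowered by −1.17, −1.66 and −1.30 and departed by 1.53 ± 0.31. Tnc, the matrix protein tenascin C, was lowered by −1.75, −1.27 and −1.35 and departed by 1.66 (adjusted p = 0.0387). Sparc, a collagen-binding matrix protein, departed by 0.40, and these were the 2 called of 25 matricellular and basement membrane genes, both above the sum.

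**Figure D4:**
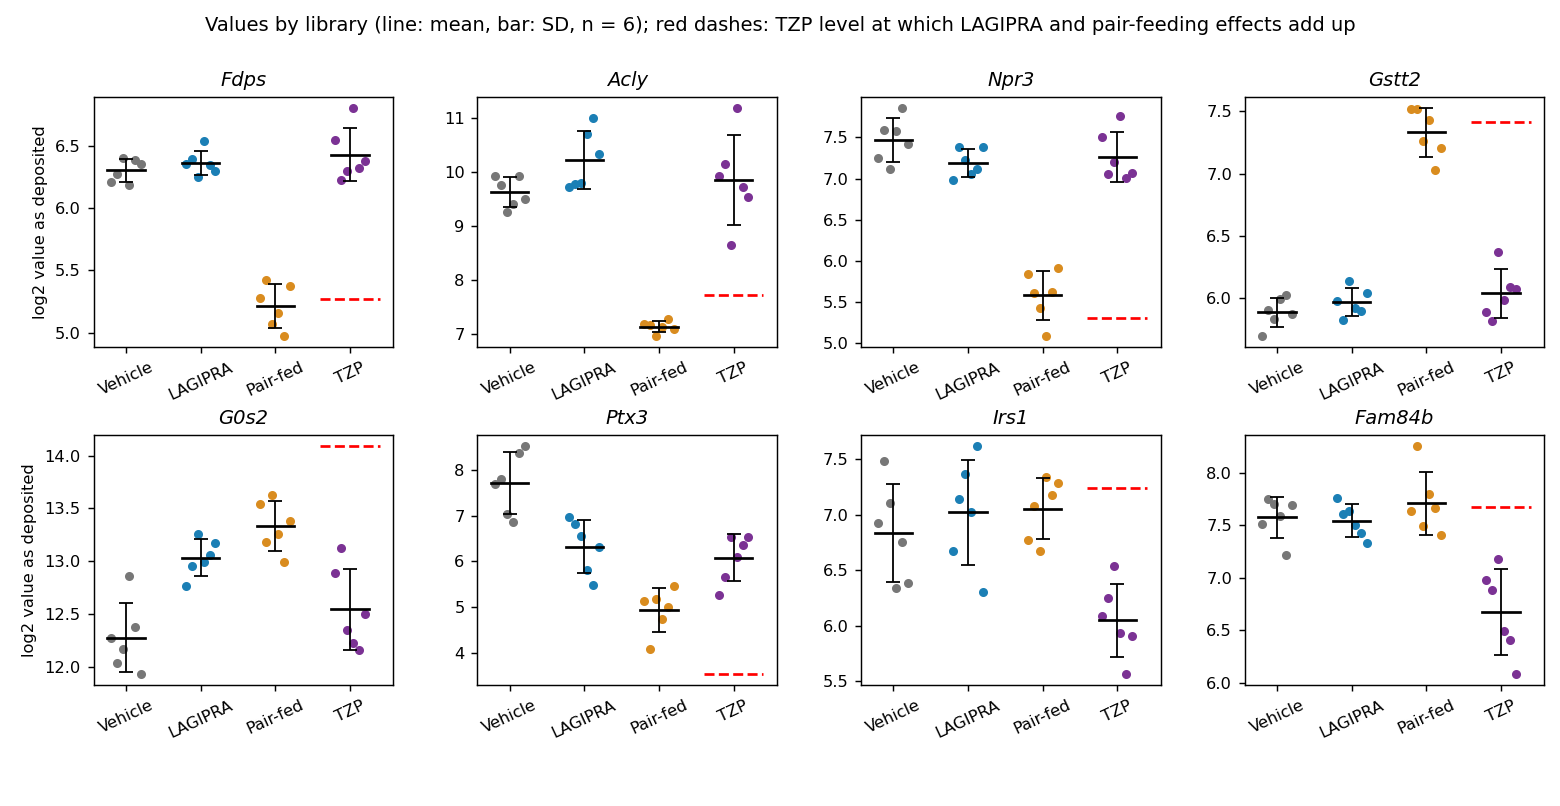
Log2 values of 8 genes by library (points, 6 per group), with group means as lines and SD as bars. Red dashes mark the TZP level at which the LAGIPRA and pair-feeding effects would add up. The TZP libraries lie above the dashes for Fdps, Acly, Npr3 and Ptx3 and below them for Gstt2, G0s2, Irs1 and Fam84b.

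Endothelial markers departed downward. Of 15 tested, 4 lay below the sum and 0 above, with a median departure of −0.25, 12 departures negative and 3 positive. TZP lowered 8 of the 15 and raised 0, whereas pair feeding raised 2 and lowered 1 and LAGIPRA raised 1 and lowered 1. Tie1 and Tek, receptors of endothelial cells, departed by −0.51 ± 0.09 (adjusted p = 0.0044) and −0.70 ± 0.13 (adjusted p = 0.00595). Tek ran from 6.08 to 6.23 in Vehicle, 6.06 to 6.26 in LAGIPRA, 6.27 to 6.66 in PairFedVehicle and 5.48 to 6.08 in TZP. The TZP libraries overlapped only the bottom of the Vehicle and LAGIPRA ranges and lay below every pair-fed library. Emcn, endomucin, departed by −0.61 (adjusted p = 0.041) and Cdh5, the cadherin of endothelial junctions, by −0.41 (adjusted p = 0.0444). The called markers differed in composition. In Tek and Cdh5 only the TZP effect was called (−0.41 and −0.42). In Tie1 only the pair-feeding effect was called (0.27), and TZP stood at −0.11. Emcn was raised by LAGIPRA (0.47) and by pair feeding (0.40) and stood at 0.26 under TZP, above Vehicle. Pericyte and smooth muscle markers had 11 of 12 negative departures (median −0.22), 0 calls, 4 at an unadjusted p under 0.05, and 5 lowered by TZP.

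The endothelial calls depended on which TZP libraries entered and on the scale, with 2 on the linear scale. With TZP libraries 1 and 2 alone, 1 marker was called below the sum, and with libraries 3 to 6 alone, 7 were. Tie1 departed by −0.51 with libraries 1 and 2 and by −0.51 with libraries 3 to 6, whereas Tek departed by −0.38 and −0.85 and Cdh5 by −0.21 and −0.52. Libraries 3 to 6 are those in which long transcripts read lower, and the median length of the genes called below the sum was 3230 bases, against 2193 for those above and 2891 for all tested genes. With the slope on length removed, 204 genes were called above the sum and 285 below. All 4 endothelial calls held in that fit, with departures of −0.47 for Tie1, −0.66 for Tek, −0.59 for Emcn and −0.38 for Cdh5.

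Among genes in which only the TZP effect was called, most were below the sum, as counted above. Per3, a clock gene, had a TZP effect of −0.77 and a departure of −1.37 (adjusted p = 0.032), which was −0.75 with TZP libraries 1 and 2 alone. It was 1 of 2 called among 18 clock genes, both below the sum. The other, Tef, a clock output factor, was raised by LAGIPRA (0.36) and by pair feeding (0.48) and departed by −0.69. Col28a1 was the 1 called of 24 tested collagens, with a departure of −0.89, and all of its TZP libraries (2.21 to 2.90) lay below every other library. It was low in all groups, from 2.21 to 3.78, where log2 differences are understated. The collagens as a list leaned the other way. Their median departure was 0.56, with 17 of 24 positive and 10 at an unadjusted p under 0.05. Fam84b and Sema6a, chosen after their values were seen, also had TZP libraries apart from the rest, and in Sema6a pair feeding was called as well (0.53). Fam84b ran from 6.08 to 7.18 in TZP and from 7.22 to 8.26 elsewhere, with a departure of −1.01 ± 0.22. Sema6a ran from 3.21 to 4.42 in TZP, 4.46 to 4.86 in Vehicle and LAGIPRA and 4.98 to 5.37 in pair-fed libraries, with a departure of −1.27 ± 0.21.

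Heat production and respiration genes had few calls. Of 24 thermogenic and brown fat genes, 1 was called, Cox8b, below the sum. The median departure was −0.26, 21 of the 24 were negative and 10 had an unadjusted p under 0.05. Ucp1 was raised by all 3 treatments, by 0.41 under LAGIPRA, 0.45 under pair feeding and 0.50 under TZP, less than the sum of the first pair. Its departure of −0.36 ± 0.17 was not called (adjusted p = 0.256, 95% interval −0.71 to −0.01). Gipr, the GIP receptor gene, was low in all groups, from 2.13 to 3.50, and its departure of 0.66 was not called (adjusted p = 0.181, 95% interval 0.11 to 1.21). The table has no row for Glp1r.

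Respiratory chain genes leaned below the sum without many calls. Of 36 complex I subunits, 34 had a negative departure, with a median of −0.18, whereas 8089 of all 17263 tested genes had a positive one. The 1 called subunit, Ndufv1 (−0.53), makes 2.78%, near the 2.69% of all tested genes. LAGIPRA raised 30 of the 36, TZP 27 and pair feeding 3. Of 41 subunits of complexes II to V, 39 were negative and 2 were called, the cytochrome oxidase subunits Cox8a (−0.62 ± 0.12) and Cox8b (−0.77). Mitochondrial fatty acid oxidation had a median of −0.36 over 21 genes, 20 of them negative and 12 at an unadjusted p under 0.05, with Eci2, an enoyl-CoA isomerase, the 1 called (−0.44). Branched-chain amino acid breakdown had a median of −0.26 over 25 genes, with 2 below the sum and 1 above. Hsd17b10, an isoleucine pathway enzyme, departed by −0.68, Aldh6a1, of valine breakdown, by −0.72 and Bcat1, the cytosolic transaminase, by 1.48. Bcat1 was low, from 1.87 to 3.50 in pair-fed libraries, where log2 differences are understated. Mitochondrial ribosomal proteins had a median of −0.02 over 78 genes. Mrps6 was the 1 called (0.65), with all pair-fed libraries below the rest. That is 1.28% of the list, less than the 2.69% of all tested genes. Of 90 cytosolic ribosomal protein genes, 0 were called, with 5 at an unadjusted p under 0.05.

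Macrophage and dividing-cell genes leaned above the sum, again with few calls. All 18 tested macrophage markers had a positive departure (median 0.62), 0 were called and 4 had an unadjusted p under 0.05. LAGIPRA lowered 7 of the 18, TZP 1 and pair feeding 0. All 20 cell division genes were positive (median 0.93), with Mki67, the proliferation marker, the 1 called (1.67, adjusted p = 0.0489). Mki67 was low, from 2.42 to 4.26 in pair-fed libraries and from 2.53 to 4.18 in LAGIPRA, where log2 differences are understated. Chemokines and cytokines had 1 of 23 called, Ccl3 (1.64), antigen presentation 1 of 18, Tapbp (0.42), and interferon-stimulated genes 1 on each side of 23, Bst2 (0.89) and Rsad2 (−1.09). Macrophage levels varied widely within groups, with a mean deviation of −0.55 to 0.86 across Vehicle libraries and −0.76 to 0.50 across TZP libraries. S100a9, a neutrophil alarmin, was the 1 called of 5 neutrophil markers, all with a negative departure (median −0.75). Its pair-fed libraries (6.64 to 7.25) lay above all others (4.71 to 6.39), with a departure of −1.44 ± 0.29.

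Blood and muscle transcripts gave large values without calls. All 7 erythroid markers were below the sum (median −1.49), each at an unadjusted p under 0.05 and none at the adjusted threshold, and TZP lowered all 7. Hbb-bt, a beta globin, had a departure of −1.61 (adjusted p = 0.106) and Slc4a1, the red cell anion exchanger, of −2.12 (adjusted p = 0.222). Slc4a1 reached the floor of the scale in TZP, from 0.006 to 4.87 with a median of 2.21. It ran from 2.20 to 5.70 in pair-fed libraries, so its departure rests partly on values near the floor. All 17 skeletal muscle markers were negative (median −1.58), with 0 called and 0 at an unadjusted p under 0.05. With the muscle marker level as a covariate, 400 genes departed, and without the 3 libraries lowest in muscle, 291 did.

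The remaining lists had few called members or none. Immediate early genes had Fosb above (2.64, adjusted p = 0.0489) and Nr4a2 below (−0.73) among 20, creatine and calcium cycling had Gamt (1.03) among 11, fibroblast markers had Mfap5 (0.93) among 10, and glucocorticoid-responsive genes had Mt2, a metallothionein (1.24), among 13. Among imprinted genes Peg3os, an antisense transcript, was the 1 called of 19, with the lowest departure under the naming rule (−1.68). Strand-specific counting is not stated, so it cannot be told apart from an overlapping partner. Proteasome, chaperone, heat shock, citrate cycle, peroxisomal, proline and glutamate breakdown, metalloprotease, iron, pericyte, lymphocyte, Schwann cell, adrenoceptor and incretin receptor lists had 0 called, with 0 to 8 members each at an unadjusted p under 0.05.

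Of the genes named for size alone, those above the sum had pair feeding as their largest effect. In some of them another effect was called as well. Arc, an activity-regulated gene, departed by 1.94, Hist1h4n, of a histone family with near-identical copies, by 1.68 and Prnd, a prion-like protein gene, by 1.61. Mir5114, a microRNA gene, was listed with 1.55 and Lctl, a lactase-like protein gene, by 1.54. Among those below it were Fam13a (−1.43), tied to fat distribution in human genetics, the galactosyltransferase gene B3galt2 (−1.41), Snord14e (−1.48), a small nucleolar RNA, Cyyr1 (−1.23) and the orphan receptor Gpr135 (−1.21). With TZP libraries 1 and 2 alone, Mir5114 and Lctl were still called, and Arc, Hist1h4n and Prnd were not. None of these genes below the sum was called with TZP libraries 1 and 2 alone, where Cyyr1 departed by −0.42 and Fam13a by −0.96. Cyyr1 stood at 7.30 and 7.25 in those libraries, at 6.90 to 7.26 in Vehicle and at 5.46 to 6.59 in TZP libraries 3 to 6. Reads listed under Mir5114 and Snord14e cannot be told apart from those of overlapping longer transcripts. In Fam13a none of the 3 separate effects was called: 0.63 under LAGIPRA, 0.49 under pair feeding and −0.30 under TZP. Among the genes named for size, Hist1h4n, Arc, Fosb, Snord14e, Fasn and Cfd were each called in fewer than 9 of 24 fits that left out a library. The same held for the family members Cdh5, Emcn, Pmvk, Cyp51, Slc25a1, Ldha, Socs3, Gstt1, Aqp7, Aldh6a1, Rsad2, Mfap5 and Mki67.

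The count of departures changed with the TZP libraries more than with any scaling, as the plot of calls by way of processing shows. It was 151 with TZP libraries 1 and 2 alone and 1962 with libraries 3 to 6 alone, and 241 to 743 over the fits that left out 1 library, lowest without Vehicle replicate 6 and highest without TZP replicate 1. None of the 465 genes changed sign under any of the 39 alternatives in which it was tested. Of the 76 genes that the naming rule gave, 74 were called, 37 of these in every fit that left out 1 library and 14 also under every other alternative: Npr3, G0s2, S100a9, Gstt2, Axin2, Mrps6, Pkm, Srebf1, Fdps, Idi1, Nsdhl, Rbp4, Tie1 and Srxn1.

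**Figure D5:**
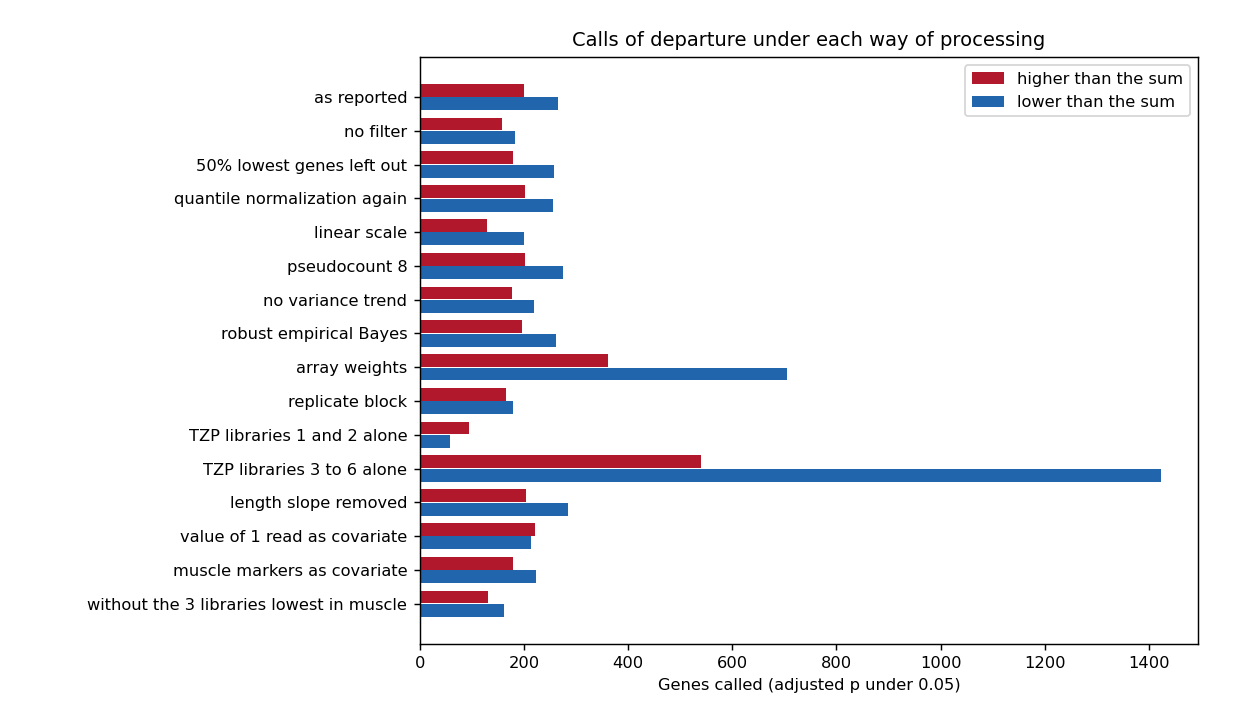
Number of genes called above (red) and below (blue) the sum, as reported and under each other way of processing that keeps all groups, fits that leave out 1 library excepted. The fit with TZP libraries 3 to 6 alone has the longest bars (539 above, 1423 below), and the fit with libraries 1 and 2 alone the shortest (94 above, 57 below).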

How the data were processed

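RNA of brown adipose tissue was sequenced in 24 libraries, 6 in each of 4 groups. The authors deposited a table of log2 expression values for 23017 genes. The submitters' processing notes name cutadapt 1.9.1 and GSNAP. The genome build and the way reads were counted per gene are not stated. The near-equal quantiles of the libraries are those of quantile-normalized values, and the lowest values lie near those of an offset of 1 read, so log2 differences of low genes are understated. Depth is unknown.

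Genes in the lowest 25% by mean were left out. A mean per group was fitted to the other 17263 with limma 3.58.1 (R 4.3.3), with a variance trend and all 24 libraries sharing the estimate of spread. A departure was called at a Benjamini-Hochberg adjusted p under 0.05 over all genes. The method was tested on simulated data. Figures were drawn with matplotlib in Python. Promoters came from RefSeq (GRCm38.p6), and transcript lengths from GENCODE.

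The gene families, and the contrast itself, were chosen with earlier results of these data known. Genes were named by rule: Gipr and Ucp1, the 12 highest and 12 lowest departures called at or above the median level (predicted genes and antigen receptor segments passed over), and in each family the called members, up to 4 by p where 3 or more were called. Further called members of those families, Fam84b, Sema6a and members that were not called were named after their values were seen. A few genes are not reported here. Alternatives covered the filter, scaling, variance model, covariates and left-out libraries.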

Additional observations from a re-analysis of the deposited data

Results flagged for a closer look

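In 19 of 364 sets of 6 libraries, a gene in a group, 1 library lay apart from the other 5 by more than the critical value of Dixon's gap test. Chance alone flags about 1 in 20 sets, and no cause was tested.

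In LAGIPRA, Bst2 had 1 library at 6.65, below the others at 7.15 to 7.32. Cox8b had 1 at 15.99 with the others tied at 16.21. Gpr135 had 1 at 7.02, Lpin3 at 4.04 and Sqle at 4.16, all low, and Grb14 had 1 at 7.76 and Gstt1 at 7.47, both high.

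Among pair-fed libraries, Gstt1 had 1 low value of 6.81. High values were found for Lss at 4.51, Mir5114 at 5.83, Slc27a2 at 9.02, Tapbp at 6.21, Thrsp at 13.26 and Tie1 at 7.86. Those of Lss, Slc27a2, Thrsp and Tie1 belong to PairFedVehicle replicate 1.

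In Vehicle, Fam13a had 1 low value of 6.50, Slc25a1 a low value of 8.18 and Gipr a high value of 3.50. In TZP, Hsd17b10 had 1 high value of 9.01 and Mki67 a high value of 4.80.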

How the results depend on the processing

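No called gene changed sign, and among the genes named only Hmgcs1, which was not called, did (0.077 with TZP libraries 1 and 2 alone). The 465 departures (200 above the sum, 265 below) became 1066 (361 and 705) with array weights, 151 (94 and 57) with TZP libraries 1 and 2 alone, 1962 (539 and 1423) with libraries 3 to 6 alone and 291 (130 and 161) without the 3 libraries lowest in muscle. They became 328 (128 and 200) on the linear scale and 434 (221 and 213) after adding the worth of a lone read as covariate. The cause was not tested.

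The replicate number as a block gave 344 calls (165 and 179). The numbers pair nothing visible: over 36 same-numbered pairs from different groups the correlation of deviations averaged −0.01, and 5 of 24 libraries correlated best with their own number. Under the block, branched-chain genes below the sum fell from 2 to 1 and insulin signalling genes above it from 2 to 1.

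Family counts outside 1.5 times the reported one were these. Linear scale: cholesterol synthesis 5, fatty acid synthesis 0, glycolysis 2, insulin signalling 0, endothelial 2, glutathione 1, branched-chain 1. TZP libraries 1 and 2 alone: cholesterol synthesis 3, glycolysis 2, adipokines 2, insulin signalling 0, endothelial 1, glutathione 1, branched-chain 0. Libraries 3 to 6 alone gave 7 endothelial and 7 branched-chain genes, and array weights 5 branched-chain genes. No filter gave fatty acid synthesis 3, insulin signalling 1, endothelial 2, glutathione 1 and branched-chain 1. No variance trend gave fatty acid synthesis 3, insulin signalling 1, glutathione 1 and branched-chain 1. The muscle covariate gave insulin signalling 1, glutathione 1 and branched-chain 1, and leaving out the 3 libraries lowest in muscle gave cholesterol synthesis 4, insulin signalling 1, endothelial 2 and branched-chain 1. With the worth of a lone read as covariate, fatty acid synthesis rose to 8.

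Leaving out each library in turn gave 241 to 743 calls, 121 to 262 above the sum and 120 to 481 below. Per family it gave 5 to 10 for cholesterol synthesis, 3 to 8 for fatty acid synthesis, 1 to 5 for glycolysis, 3 to 4 for adipokines, 2 to 6 for endothelial markers, 1 to 3 for glutathione, 1 to 2 for insulin signalling and 1 to 3 for branched-chain genes. Depth is unknown, so limits from read counts cannot be given.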
